A study of Mus musculus with 6 samples.

Results

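The genes described here encode the mTOR pathway machinery and its nutrient sensors: the subunits of both mTOR complexes, the TSC complex and the Rheb-type GTPases, the Rag GTPases with their Ragulator scaffold, the GATOR complexes, the folliculin complex, the Akt inputs and the direct substrates. The members were chosen by gene symbol, matched through the Ensembl identifiers of GENCODE mouse release 21 with a mean value of at least 10, and the list holds the machinery itself rather than the genes that respond to it. All 39 of the 39 listed symbols were found among the 46078 genes of the table, and all 39 were among the 17605 genes that passed this filter. The RNA came from the striatum of male C57BL/6J mice aged 12 weeks, either wild-type (WT, 3 mice) or transgenic for EGFP-tagged Shank3 (Shank3 TG, 3 mice), with 1 library per mouse. Shank3 is a scaffold protein of excitatory synapses, and the study asked which signaling pathways differ in the striatum when it is mildly overexpressed. TG mice carry the transgene beside the endogenous gene, and the promoter of the transgene is not given in the sources used here.

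The kinase mTOR works in a pair of complexes, mTORC1 with Raptor and mTORC2 with Rictor. mTORC1 is recruited to the lysosome by the Rag GTPases when amino acids are plentiful and is switched on there by GTP-bound Rheb, which the TSC complex turns off until Akt phosphorylates TSC2. In the striatum an additional Rheb-like GTPase, Rhes, encoded by Rasd2 and made mainly by medium spiny neurons, also binds and activates mTORC1.

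Values are normalized read counts, that is, the reads of a gene divided by the size factor of the library. They rested on 27689589 to 36647626 reads per library, and the lowest member, Eif4ebp1, still had 43 to 87 reads in each. Shank3 itself stood at 29891, 28309 and 26044 (TG) and 13807, 12918 and 13865 (WT), which is a log2 fold change of 1.05 (SE 0.06, adjusted P = 7.04e-05, limma), so the libraries matched their labels. Markers of medium spiny neurons were abundant in all 6 libraries, with 8 markers summing to between 109199 and 152915. TG replicate 1 stood apart: its summed choroid plexus markers came to 15278, against 627 and 1866 in the other TG mice and 542 to 883 in WT mice, and its summed medium spiny neuron markers were the lowest of all. Of the 8 choroid plexus markers 7 were tested, all 7 with positive log2 fold changes, 0 called and 3 with an unadjusted limma P under 0.05, and Kcnj13 was listed at 0 in WT replicate 3. TG replicate 2 had the highest summed medium spiny neuron markers (152915). Its summed cortical excitatory neuron markers were the lowest, at 26085 against 30488 to 37369 in the other libraries. In RNA from whole tissue, fewer cells of a type and less RNA per cell cannot be told apart. Counts of members are therefore also given without TG replicate 1.

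Per kb of exon, the members spanned a 204-fold range of levels in the striatum. Rasd2 was the highest, at 5589 normalized reads per kb over the 6 libraries, and it was followed by Rraga (1734), Rragd (1298), Akt1 (1135) and Lamtor5 (819). The ranges of these 5 genes over the 6 libraries did not overlap with those of their neighbours in the order. Below them most neighbours overlapped. From Lamtor2 (630.3) down to Tsc2 (479) each gene overlapped with the next, and so did the run from Mapkap1 (434) through Mtor (405) to Seh1l (287). Further gaps followed Lamtor3 (258), Rps6kb1 (181), Nprl3 (119.6) and Tbc1d7 (88.6). Slc38a9 (54.1) and Eif4ebp1 (27.4) closed the order, each apart from its neighbour. In this tissue the abundant end of the pathway thus held the striatal GTPase, Rag GTPases and an Akt kinase, while the kinase subunit Mtor and its partners Rptor (190.1) and Rictor (153) lay in the middle and lower parts. When the longest transcript was used as the length in place of all exon bases, 2 members moved by more than 5 places. These were Rheb, from 21 to 13, and Nprl3, from 34 to 27. The top of the order also depended on the length used. Akt1 moved from 4 to 3, Rragd from 3 to 4, Lamtor2 from 6 to 5 and Lamtor5 from 5 to 9.

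**Figure D1:**
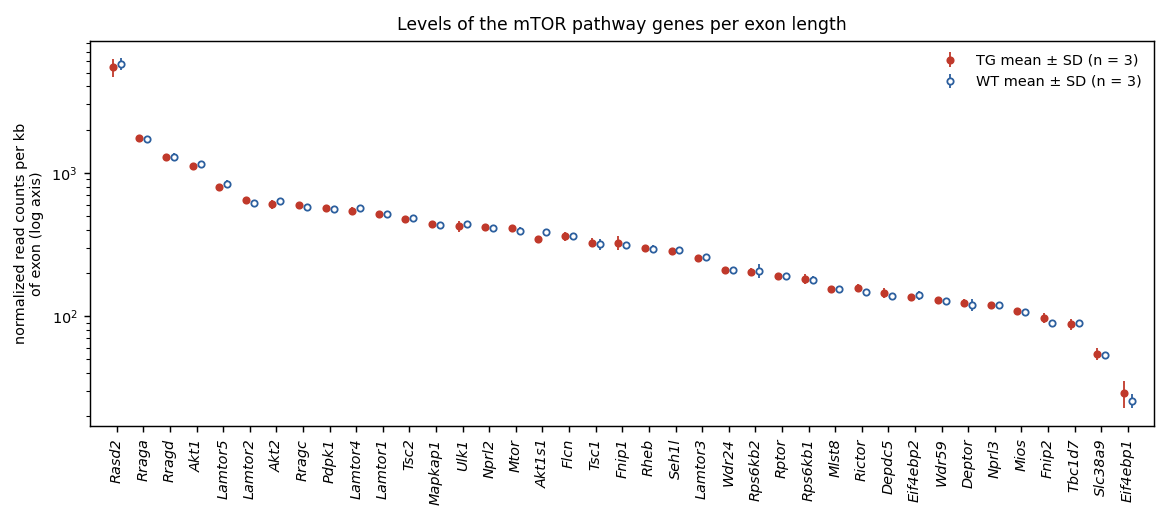
Level of each of the 39 members in normalized read counts per kb of exon (log axis), as mean ± SD over 3 TG (filled) and 3 WT (open) mice, ordered from high to low. Rasd2 lies above all others at 5589 per kb over the 6 libraries and Eif4ebp1 below all others at 27.4, and the TG and WT symbols of most genes lie side by side.

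None of the 39 members passed the test between Shank3 TG and WT striatum (limma, adjusted P under 0.05), where 0.00568% of all genes tested did, which was 1 gene, Shank3. The lowest adjusted P of any member was 0.971. The edgeR, DESeq2 and limma-voom fits on the recovered reads also called 0 members, where they called 0.00568%, 0.0398% and 0.00568% of all genes tested. At an unadjusted P under 0.05 limma gave 1 member, Akt1s1, which is 2.56% of the members beside 4.31% of all genes tested (2.33% with lower and 1.98% with higher values in TG mice), and edgeR, DESeq2 and limma-voom gave 1 each. TG and WT values did not overlap in 2 members (5.13%, against 10.1% of all genes tested), Akt1s1 with TG values below (5.05% of all genes tested) and Fnip2 with TG values above (5.06%). Log2 fold changes were positive in 22 members and negative in 17, with a median of 0.01, against a median of 0.00 over all genes tested.

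The fold changes of the members were small, and most intervals lay within a bound of 1.2-fold, chosen for description. By its own test the paper called genes with fold changes below this bound, so an interval inside it leaves room for a difference. Each interval was set for its gene alone. The 95% interval of the difference lay within 1.2-fold of no difference in 35 of 39 members (89.7%), against 49.2% of all genes tested. The members are more abundant than most genes tested, with a median normalized read count of 1562 against 488, and their SD within groups was smaller, with a median of 0.07 on the log2 scale against 0.11. The other 4 members were Akt1s1 (interval -0.28 to -0.04 on the log2 scale), Rasd2 (-0.31 to 0.13), Fnip2 (-0.03 to 0.27) and Eif4ebp1 (-0.27 to 0.60). For these 4 genes the interval reached past a 1.2-fold difference.

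**Figure D2:**
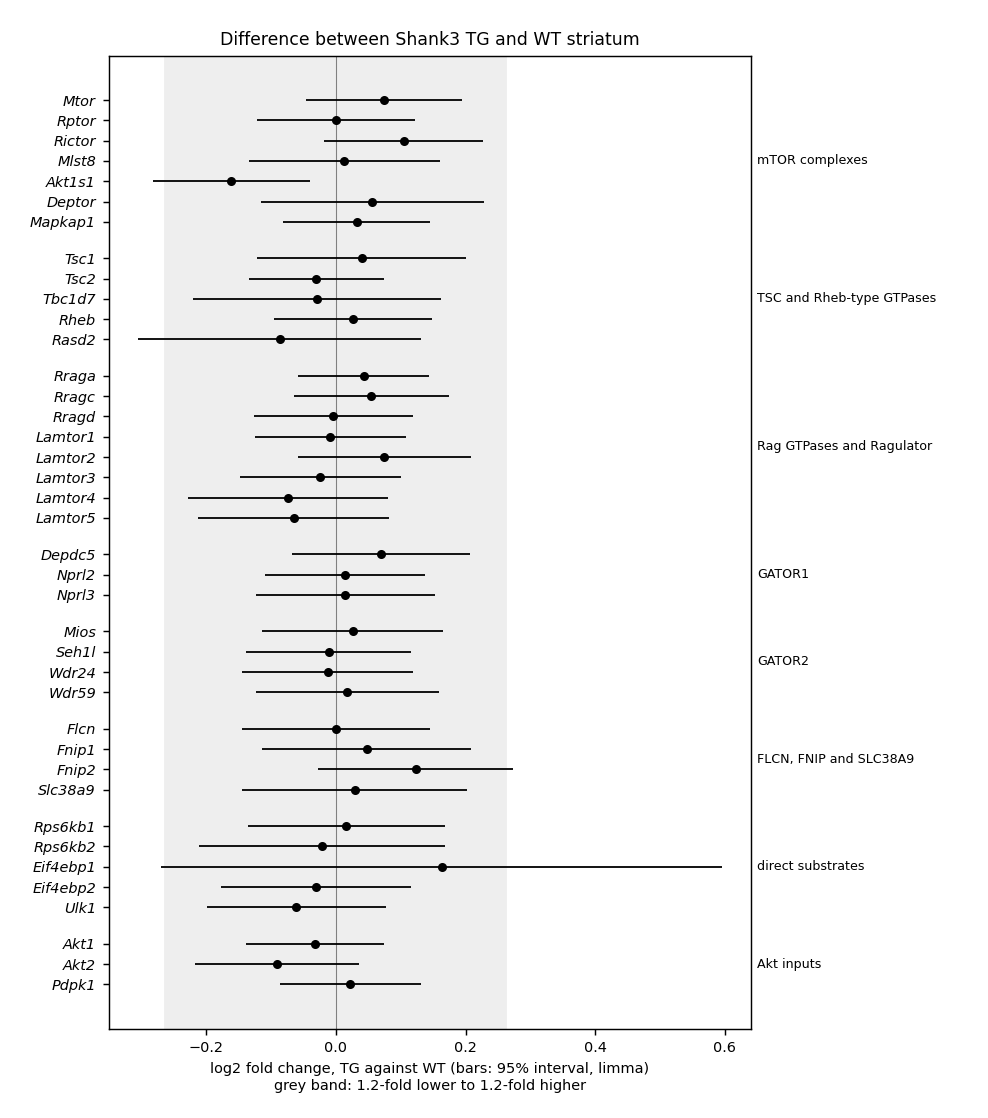
Log2 fold change of each member between TG and WT striatum with its 95% interval from limma (n = 3 against 3), grouped by role; the grey band spans 1.2-fold lower to 1.2-fold higher. Of the 39 intervals, 35 lie inside the band, and Akt1s1 is the member whose interval does not reach 0.

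**Figure D3:**
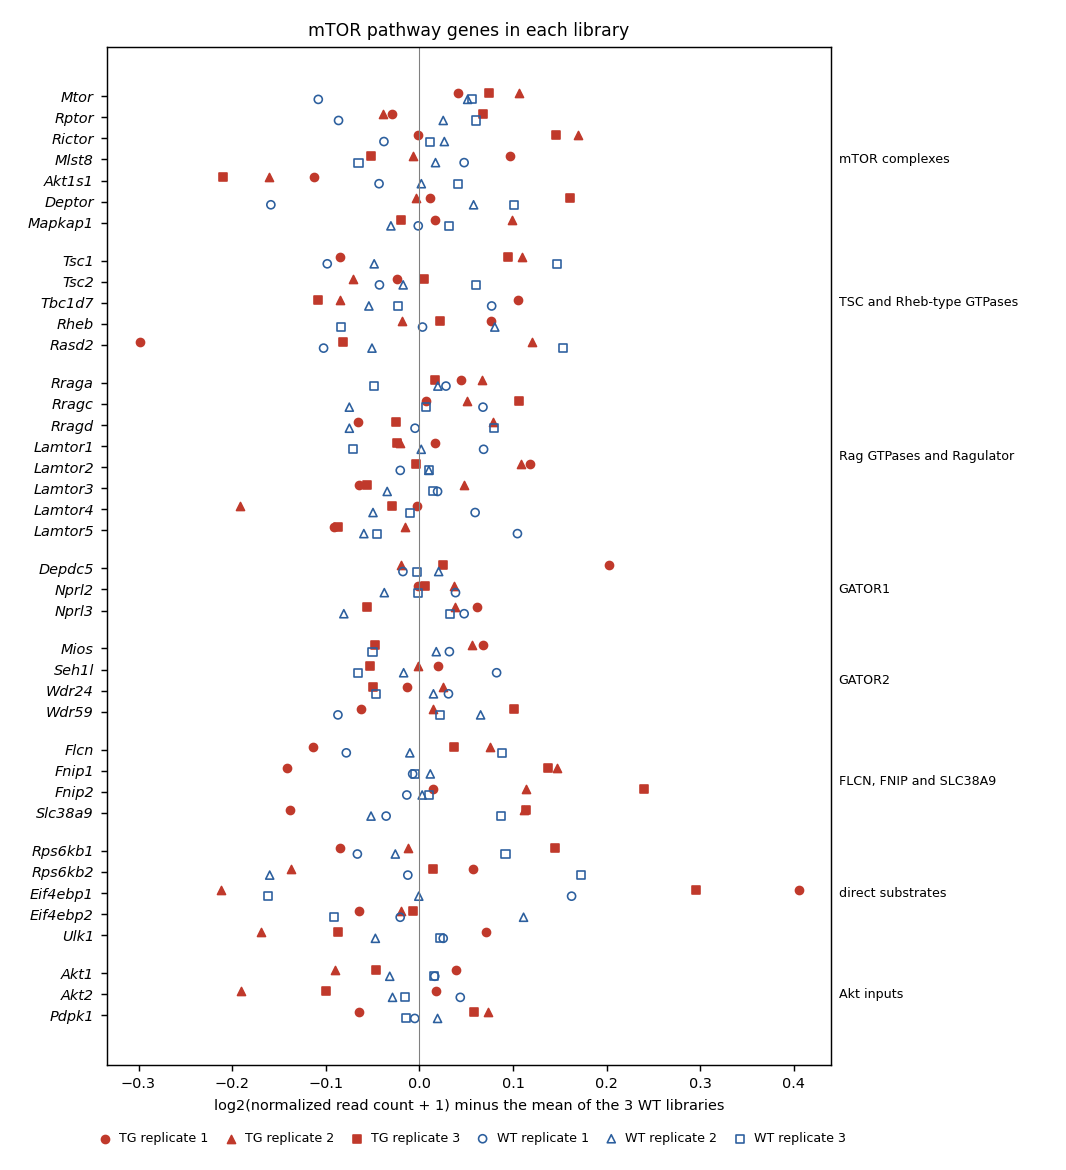
Value of each member in each of the 6 libraries as log2(normalized read count + 1) minus the mean of the 3 WT libraries (filled symbols TG, open symbols WT; circle, triangle and square are replicates 1, 2 and 3). TG and WT symbols interleave in 37 of 39 members, and TG replicate 1 is the lowest point for Rasd2 and the highest for Depdc5 and Eif4ebp1.

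Among the 7 subunits of the mTOR complexes, 0 were called and log2 fold changes ran from -0.16 to 0.10. Values below are given in the order of replicates 1, 2 and 3. Normalized read counts of Mtor (chr4:148448611-148557683, GRCm38), the kinase of both complexes, were 4103, 4293 and 4199.7 (TG) and 3700.1, 4133 and 4147 (WT). WT replicate 1 was the lowest library and the other 5 lay close together, and the log2 fold change was 0.07 (SE 0.05, interval -0.05 to 0.19). Rptor, the substrate-binding subunit of mTORC1, had a log2 fold change of 0.00 (SE 0.05). Rictor, the defining subunit of mTORC2, had values of 2488, 2802 and 2756 (TG) and 2426, 2537 and 2510.3 (WT). TG replicates 2 and 3 lay above every WT value and TG replicate 1 among them, and the log2 fold change of Rictor was 0.10 (SE 0.06), with an unadjusted limma P of 0.0868. The groups also overlapped for the shared subunit Mlst8 (0.01, SE 0.07), the mTOR inhibitor Deptor (0.06, SE 0.08) and the mTORC2 subunit Mapkap1 (0.03, SE 0.05).

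Akt1s1 (ENSMUSG00000011096, chr7:44848991-44855421, GRCm38) encodes PRAS40, an mTORC1 subunit and substrate that restrains the complex until Akt phosphorylates it. Its normalized read counts were 1096, 1059.9 and 1024 (TG) and 1150.2, 1187 and 1219 (WT). All 3 TG values lay below all 3 WT values, with means ± SD of 1060.0 ± 35.7 in TG mice and 1185 ± 34.6 in WT mice. The log2 fold change was -0.16 (SE 0.05), with an unadjusted limma P of 0.0137 and an adjusted P of 0.971, so it did not pass the correction over all genes. Unadjusted P values were 0.0111 with edgeR and 0.0341 with DESeq2. With a single mouse left out the log2 fold change lay between -0.19 (TG replicate 1 left out) and -0.14 (TG replicate 3 left out). Its sign could not change, since all TG values lay below all WT values. The unadjusted limma P rose to 0.0588 without TG replicate 3 and to 0.0514 without WT replicate 3. The gene has several annotated starts. The bases before the RefSeq start are shown because this was the member with the lowest P, at chr7:44850297-44850371 on the plus strand (GRCm38.p6), a stretch that lies in an intron of longer Akt1s1 transcripts. Capitals mark GC boxes (GGGCGG) and an ETS motif on the opposite strand (CCGGAAGT, read here as ACTTCCGG).
Akt1s1: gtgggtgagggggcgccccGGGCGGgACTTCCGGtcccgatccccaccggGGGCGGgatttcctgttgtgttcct

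In the promoters of RefSeq (300 bases, 250 before and 50 after the start), 39 promoters of 33 members were matched. Deptor, Lamtor3, Seh1l, Wdr24, Rps6kb2 and Eif4ebp1 had no entry. The ETS motif, searched on both strands, stood in 6 of the 39 member promoters (15.4%), those of Akt1s1, Mapkap1, Mtor, Nprl2, Rraga and Tsc2, against 6.78% of the promoters of genes tested and 3.89% of all promoters. The GC box stood in 19 (48.7%, against 58.4% and 35.7%) and the cAMP response element TGACGTCA in 1, that of Flcn (2.56%, against 2.77% and 1.79%). These shares were not tested.

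In the TSC complex and its GTPases, 0 of 5 genes were called, with log2 fold changes from -0.09 to 0.04. Tsc1, which stabilizes the complex, had normalized read counts of 3527, 4034 and 3994 (TG) and 3493, 3617 and 4140.0 (WT). Tsc2, its GTPase-activating subunit, had values of 4572, 4426 and 4665 (TG) and 4514, 4594 and 4847 (WT). Both pairs of groups overlapped, with log2 fold changes of 0.04 (SE 0.07) for Tsc1 and -0.03 (SE 0.05) for Tsc2, and the smallest subunit, Tbc1d7, was at -0.03 (SE 0.09). Rheb values were 2400.0, 2247 and 2311 (TG) and 2281, 2406 and 2147 (WT). The Rheb groups overlapped throughout, with a log2 fold change of 0.03 (SE 0.05, interval -0.09 to 0.15).

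Rasd2 (ENSMUSG00000034472, chr8:75213944-75224113, GRCm38), which encodes Rhes, was the most abundant member in reads as well as per kb. Its normalized read counts were 14792, 19776 and 17190.4 (TG) and 16951, 17569 and 20233 (WT). TG replicate 1 was the lowest library and WT replicate 3 the highest, and the groups overlapped, with means ± SD of 17253 ± 2493 in TG mice and 18251 ± 1744 in WT mice. The log2 fold change was -0.09 (SE 0.10) with an unadjusted limma P of 0.398. This value depended on single mice: it was 0.02 without TG replicate 1 and -0.19 without TG replicate 2, the latter with an unadjusted limma P of 0.0449 and an adjusted P of 0.843. Rasd2 varied between mice together with the markers of the neurons that express it. As a share of the summed 8 medium spiny neuron markers of the same library, Rasd2 came to 13.6%, 12.9% and 13.4% (TG) and 12.8%, 12.9% and 13.3% (WT). The SD within groups on the log2 scale was 0.18 for Rasd2 and 0.03 for its ratio to the markers, and the ratio differed by 0.03 between the groups (two-sided exact permutation test, P = 0.2, where 0.1 is the smallest that 3 against 3 allows). This ratio was added after the values had been seen, and it is not reported for other members. The part of cell composition in the spread of Rasd2 was not tested. The bases before the Rasd2 start, shown for the most abundant member, are at chr8:75213694-75213943 on the plus strand (GRCm38.p6, RefSeq) between annotated genes. They hold none of the motifs searched.
Rasd2: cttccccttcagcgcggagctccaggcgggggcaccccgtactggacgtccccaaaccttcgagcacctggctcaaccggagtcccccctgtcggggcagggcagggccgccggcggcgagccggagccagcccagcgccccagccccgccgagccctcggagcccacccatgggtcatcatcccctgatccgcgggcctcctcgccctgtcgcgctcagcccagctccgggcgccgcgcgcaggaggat

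The Rag GTPases carry mTORC1 to the lysosome, and the 5 Lamtor proteins form the Ragulator scaffold that holds the Rags there. Of these 8 genes 0 were called, and their log2 fold changes ran from -0.07 to 0.07. Rragd, the most abundant of them in reads, had values of 6419, 7090.1 and 6601 (TG) and 6694, 6376 and 7096 (WT). Its groups overlapped, with a log2 fold change of 0.00 (SE 0.06). Lamtor4 had normalized read counts of 742, 651 and 728 (TG) and 775, 718 and 738 (WT). TG replicate 2 was the lowest of the 6 and WT replicate 1 the highest, with a log2 fold change of -0.07 (SE 0.07). Log2 fold changes of the remaining members were 0.04 for Rraga, 0.05 for Rragc, -0.01 for Lamtor1, 0.07 for Lamtor2, -0.02 for Lamtor3 and -0.06 for Lamtor5. The subunits of the scaffold lay on both sides of 0, with SEs of 0.05 to 0.07 and overlapping groups.

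Lamtor1, Lamtor4 and Rragc carry an E-box (CACGTG, the same on both strands) in their RefSeq promoter, the core of the element that TFEB, a transcription factor held in the cytoplasm by mTORC1, is known to bind. It stood in 6 of the 39 member promoters (15.4%), those of Fnip1, Lamtor1, Lamtor4, Rheb, Rragc and Tbc1d7, against 9.20% of the promoters of genes tested and 7.15% of all promoters, with no test run. The windows below, all from RefSeq promoters on GRCm38.p6, show the E-box in capitals in 30 bases and are printed as the member promoters that hold it outside annotated exons. They lie at chr11:54438092-54438121 for Fnip1, chr7:101905757-101905786 for Lamtor1, chr5:138255350-138255379 and, overlapping it, chr5:138255366-138255395 for Lamtor4 and chr4:123917309-123917338 for Rragc on the plus strand, and at chr13:43171537-43171566 on the minus strand for Tbc1d7. The Lamtor1 window falls in an intron of Tomt, and the others fall between annotated genes. The Rheb match lies in an annotated exon and is not printed.
Fnip1: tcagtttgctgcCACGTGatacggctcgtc
Lamtor1: ctgccttcctatCACGTGccgcgggtccgc
Lamtor4, first window: gcagaaagttaaCACGTGaacagcttttca
Lamtor4, next window: tgaacagcttttCACGTGtaaaccaaacca
Rragc: ggtgattccgggCACGTGatagtaccactt
Tbc1d7: ccggttaacatcCACGTGtgggtgggactc
The genes with these windows had log2 fold changes between -0.03 (Tbc1d7) and 0.05 (Rragc) apart from Lamtor4, and none was called.

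GATOR1 turns off the Rags when amino acids are scarce, and GATOR2 opposes it. In GATOR1, Depdc5 was the most abundant subunit in reads, with values of 1877, 1608 and 1658 (TG) and 1610.3, 1654 and 1627 (WT). TG replicate 1 was the highest library and the other 5 lay within the same narrow range, with a log2 fold change of 0.07 (SE 0.06), which became 0.00 without TG replicate 1. The other subunits were at 0.01 (Nprl2, SE 0.06) and 0.01 (Nprl3, SE 0.06). In GATOR2, Seh1l, which also serves in the nuclear pore, had values of 1201, 1184 and 1142 (TG) and 1254, 1171 and 1132 (WT). Mios had values of 731, 725 and 675 (TG) and 713, 706 and 674 (WT), the largest log2 fold change of the 4 GATOR2 members at 0.03 (SE 0.06). Both genes overlapped between the groups, and Wdr24 (-0.01) and Wdr59 (0.02) differed as little. No GATOR interval reached beyond -0.14 or 0.21.

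Folliculin (Flcn) and its partners Fnip1 and Fnip2 activate RagC and RagD, and SLC38A9 senses lysosomal arginine. Fnip2 (ENSMUSG00000061175, chr3:79455974-79567796, GRCm38) was the only one of the 39 members in which every TG value exceeded every WT value, with normalized read counts of 756, 810.4 and 884 (TG) and 742, 750.1 and 754 (WT). The gap was small, since TG replicate 1 lay just above the highest WT mouse, and the WT mice were close together (means ± SD of 817 ± 64.4 in TG mice and 749 ± 6.31 in WT mice). The log2 fold change was 0.12 (SE 0.07), with an unadjusted limma P of 0.1002, and with TMM scaling in place of the authors' size factors the groups overlapped. Fnip1 had values of 2031, 2479.5 and 2463 (TG) and 2228, 2258 and 2233 (WT). TG replicates 2 and 3 lay above all WT mice and TG replicate 1 below all of them, so that the log2 fold change of 0.05 (SE 0.07) averaged over opposite directions. Flcn was at 0.00 (SE 0.07) and Slc38a9 at 0.03 (SE 0.08).

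**Figure D4:**
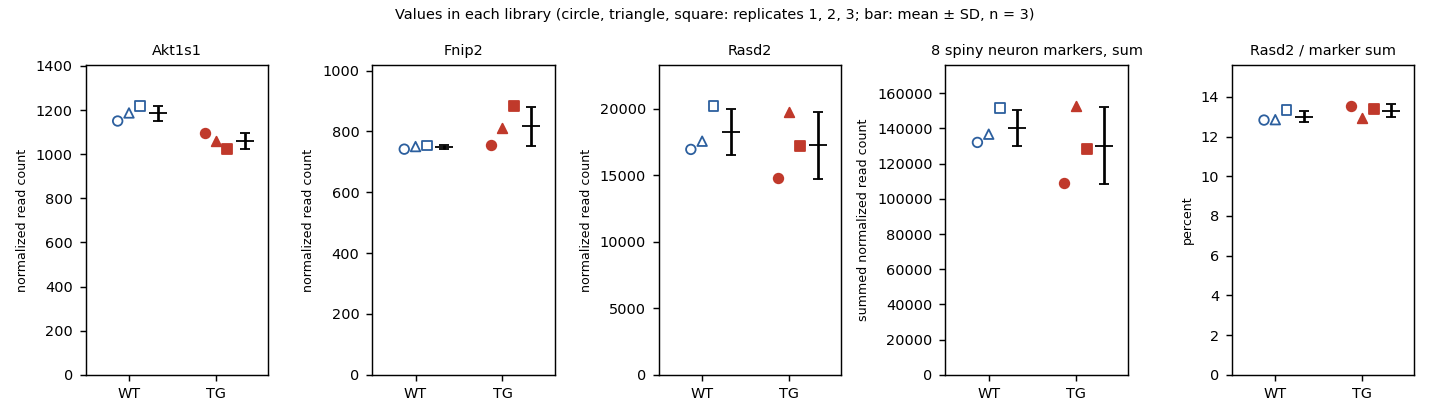
Normalized read counts of Akt1s1, Fnip2 and Rasd2, the summed counts of 8 medium spiny neuron markers, and Rasd2 as a percent of that sum, in each library (circle, triangle and square are replicates 1, 2 and 3; bar and whiskers are mean ± SD, n = 3). TG values of Akt1s1 (1024 to 1096) lie below the WT values (1150 to 1219), Fnip2 is separated by a narrow gap, and the spread of Rasd2 between mice shrinks when it is divided by the marker sum.

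Of the 5 direct substrates, 0 were called. Ulk1, the autophagy kinase that mTORC1 inhibits, was the most abundant in reads, with values of 3007, 2547 and 2696 (TG) and 2914, 2771 and 2906 (WT). TG replicate 1 was the highest library and TG replicates 2 and 3 the lowest, with a log2 fold change of -0.06 (SE 0.06). Eif4ebp1, a repressor of cap-dependent translation, was the least abundant member, with normalized read counts of 74.7, 48.3 and 69.1 (TG) and 63.0, 56.1 and 50.1 (WT). TG replicate 2 was the lowest library and TG replicates 1 and 3 the highest, and the wide interval of -0.27 to 0.60 around the log2 fold change of 0.16 goes with 43 to 87 reads per library. The other translational repressor, Eif4ebp2 (-0.03, SE 0.07), and the S6 kinases Rps6kb1 (0.02, SE 0.07) and Rps6kb2 (-0.02, SE 0.09) overlapped between the groups.

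Among the Akt inputs, Pdpk1, the kinase that activates Akt, had the most reads, with values of 5878, 6464 and 6397 (TG) and 6124, 6229 and 6084 (WT), and a log2 fold change of 0.02 (SE 0.05). Akt1 values were 4832, 4418 and 4553 (TG) and 4755, 4599.5 and 4752 (WT). The groups overlapped, with a log2 fold change of -0.03 (SE 0.05). Akt2 values were 4615, 3996 and 4256 (TG) and 4700.4, 4470.4 and 4513 (WT). TG replicates 2 and 3 lay below all WT mice and TG replicate 1 lay among them, and the log2 fold change of -0.09 (SE 0.06) had an unadjusted limma P of 0.140.

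TG replicate 1, the mouse with the high choroid plexus markers, moved several of these values. Without it, 6 members had an unadjusted limma P under 0.05 (15.4%, against 7.53% of all genes tested without it) and 0 were called, with a lowest adjusted P of 0.658. Rictor (0.16), Fnip1 (0.14) and Fnip2 (0.18) then had positive log2 fold changes, and Akt1s1 (-0.19), Akt2 (-0.15) and Ulk1 (-0.13) negative ones. TG and WT values then did not overlap in 11 members (28.2%), close to the 25.6% of all genes tested. An unadjusted P under 0.05 was found in 2 members without TG replicate 2 (Akt1s1 and Rasd2; 5.82% of all genes tested), in 0 without TG replicate 3 (2.86%), in 1 without WT replicate 1 (4.0%), in 1 without WT replicate 2 (3.71%) and in 0 without WT replicate 3 (3.33%). In the same order 6, 5, 4, 2 and 2 members had no overlap, against 21.2%, 17.0%, 20.1%, 19.6% and 18.4% of all genes tested. Values without TG replicate 1 rest on TG replicates 2 and 3, which also differed from each other in their summed neuron markers. The part of choroid plexus tissue, or of other tissue composition, in these values was not tested.

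**Figure D5:**
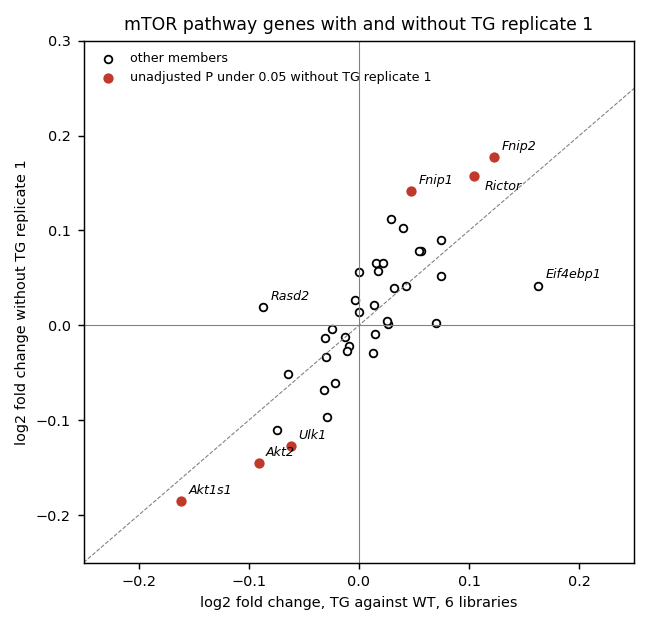
Log2 fold change of each member with all 6 libraries (horizontal axis) and without TG replicate 1 (vertical axis); the dashed line marks equal values. The 6 filled points had an unadjusted limma P under 0.05 without TG replicate 1, none of them passed the correction over all genes, and Rasd2 moved from -0.09 to 0.02.

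The balance between related members was compared as the log2 ratio of their counts within a library. In 10 such pairs the TG and WT ratios overlapped in every pair, with differences from -0.10 (Rptor to Rictor) to 0.19 (Eif4ebp1 to Eif4ebp2), and the lowest adjusted P over the 10 pairs was 0.857 (two-sided exact permutation tests). Per kb, Rheb stood at 0.054 of the level of Rasd2 and Eif4ebp1 at 0.198 of Eif4ebp2. Fnip1 was 3.43 times Fnip2, Akt1 was 1.83 times Akt2, Rragc was 0.451 of Rragd and Tsc1 was 0.671 of Tsc2. These ratios of levels are means over both genotypes and depend on the length used. With all exon bases Rheb stood at 298 and Rasd2 at 5589 per kb. With the longest transcript they stood at 568 and 6317. Without TG replicate 1 the ratios of 3 pairs did not overlap, and without TG replicate 2 those of 2 pairs. The ratio of 1 pair did not overlap without WT replicate 1 or without WT replicate 3. In the order of these settings, single genes did not overlap in 25.6%, 21.2%, 20.1% and 18.4% of all genes tested. The share over other pairs of genes was not computed, and these counts were not tested.

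The pathway was also followed through 57 further genes that passed the filter, from growth factor receptors to stress inputs and effectors. None was called by limma, edgeR, DESeq2 or limma-voom, and 2 (3.51%, against 4.31% of all genes tested) had an unadjusted limma P under 0.05, where edgeR gave 2, DESeq2 0 and limma-voom 1. Rb1cc1, a scaffold of the Ulk1 complex, had normalized read counts of 3074, 3269.7 and 3403 (TG) and 3038, 3054 and 2909 (WT). All of its TG values lay above all of its WT values, with a log2 fold change of 0.11 (SE 0.05) and an unadjusted limma P of 0.0489. The adjusted P was 0.971, and DESeq2 gave an unadjusted P of 0.0758.

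The groups did not overlap in 10 of the 57 genes (17.5%, against 10.1% of all genes tested). TG values were above WT values in 6 of them, among which were Rb1cc1, Pdcd4, Rragb, Eif4e and Bmt2, and below in 4, Rhebl1, Tfeb, Prkag1 and Atg101. Of the genes with P above 0.05, the largest log2 fold changes were those of Sgk1, Rhebl1 and Tfeb. Sgk1, an mTORC2 substrate kinase, had values of 4626, 5687 and 4894 (TG) and 3345, 4719 and 4737 (WT), and WT replicate 1 lay far below the rest (log2 fold change 0.26, SE 0.12). Rhebl1, a Rheb paralog, had values of 161, 137 and 159 (TG) and 191, 183 and 162 (WT), a log2 fold change of -0.23 (SE 0.12). Tfeb values were 288, 257 and 286 (TG) and 322, 291 and 326 (WT), a log2 fold change of -0.17 (SE 0.09). Positive log2 fold changes stood in 11 of 14 genes on the growth factor and PI3K side, 9 of 15 substrates and effectors, 5 of 12 on the amino acid side, 4 of 9 on the energy and stress side and 3 of 7 complex partners.

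Exons of 13 members share bases with another annotated gene, on the opposite strand in 14 of 15 pairs, and whether reads were counted by strand is not given in the sources used here. In 6 members the partner was itself tested, with between 0.871% and 23.7% of the exon bases of the member shared. Akt1s1 shares 89 exon bases with Tbc1d17, which had a log2 fold change of -0.04 (SE 0.05). The members lie on 16 chromosomes. Pdpk1, Mlst8, Tsc2 and Wdr24 lie within 1.76 Mb of chromosome 17, with log2 fold changes from -0.03 to 0.02, and Rictor and Deptor lie on chromosome 15 with Shank3, the nearer of them 34.2 Mb away from it.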

How the data were processed

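Striatal RNA of 3 WT and 3 Shank3 TG mice was sequenced from paired-end libraries, 1 per mouse. Per the labels, the authors used Trimmomatic 0.35 for trimming, TopHat2 2.1.0 for alignment to GRCm38 and HTSeq for gene counts. The deposited values are a normalized signal, each gene's read count over the DESeq2 size factor of its library. The annotation release is not given in the sources used here. Every value was a whole multiple of the smallest value of its library (100% within 0.01), so reads were recovered, 27689589 to 36647626 per library. Intervals cover the spread between mice.

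Identifiers were matched to GENCODE mouse release 21 (45229 of 46078). Groups were compared with limma 3.58.1 (mean-variance trend) on log2(value + 1) over 17605 genes with a mean of at least 10, two-sided, with Benjamini-Hochberg adjustment over all of them at 0.05, and fold changes are on that scale, which understates changes of low genes. The study itself used DESeq2. DESeq2 1.42.0, edgeR 4.0.16 (quasi-likelihood) and limma-voom on the recovered reads served as alternatives, as did pseudocounts of 0.5 and 5, no filter, a mean of at least 50, TMM scaling, library totals, the replicate block and each library left out. The fits were tested on simulated data. Ratios of members were compared by exact permutation (scipy 1.17.1), and levels were divided by the union of exon bases. Between libraries, Pearson r of log2 values was 0.992 to 0.995 and differences exceeded counting error by factors of 4.97 to 14, so no library copied another.

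Values in every library are given for the mTORC1 regulators the study names, members with an unadjusted P under 0.05 or without overlap, and in each role the most abundant member and the one with the largest log2 fold change. Of the other pathway genes, those with an unadjusted P under 0.05 and the next 3 by log2 fold change are given, and others are named by count. Rictor values were added after they had been seen. The members, lists and tests were chosen with earlier results of these data known. Of 58 other pathway genes listed, 57 were matched and tested, and the values of 1 of them are not reported here. Of 7 lists of cell type markers, 0 genes were called. The ranges of cortical excitatory neuron, oligodendrocyte, astrocyte and endothelial markers overlapped. Microglia markers summed to 8112 to 8739 in TG and 8827 to 9111 in WT mice, without overlap. Of the 5 microglia markers, 0 had a positive log2 fold change. An unadjusted limma P under 0.05 was found in 2 of them (4.31% of all genes tested).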

Additional observations from a re-analysis of the deposited data

How the results depend on the processing

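Called members stayed at 0 under all 16 alternatives, and the lowest adjusted P of any member was 0.658, without TG replicate 1. The number with an unadjusted P under 0.05 was 2 with the replicate block. It was 0 to 6 with a library left out, beside 2.86% to 7.53% of all genes tested. Members without overlap numbered 1 with TMM scaling. They numbered 2 to 11 with a library left out, beside 17.0% to 25.6% of all genes tested. Shares over all genes with the replicate block and with TMM scaling are not given here. The count without overlap has no value for edgeR, DESeq2 and limma-voom. The median log2 fold change was -0.00144 to 0.0185 with a library left out. Pairs of members without overlap then numbered 0 to 3 of 10, where 17.0% to 25.6% of single genes tested did not overlap. Correlations of deviations between TG and WT replicates of the same number were 0.047, 0.016 and 0.093. Those between different numbers ran from -0.125 to 0.077. With 3 libraries per group these values cannot decide whether the numbers pair the mice. The block called 0 members, and Akt1s1 and Rictor had an unadjusted P under 0.05 with it. With the longest transcript as length, 2 members moved by over 5 places, and Lamtor5 moved from place 5 to 9. Of 705 alternative values of 44 named genes, 42 in 22 genes changed sign, 35 of them with a library left out. Rptor was -0.00192 with DESeq2, -0.000161 with TMM scaling, -0.00267 with edgeR and -0.00249 with limma-voom, Rragd 0.00129 and Flcn 0.00492 with library totals, and Rasd2 0.0317 relative to the neuron markers. With a library left out, the log2 fold change ran from -0.0432 to 0.0305 for Rptor, -0.0288 to 0.0451 for Mlst8, -0.0233 to 0.106 for Deptor, -0.00152 to 0.0577 for Mapkap1, -0.00932 to 0.113 for Tsc1, -0.0965 to 0.0105 for Tbc1d7, -0.0152 to 0.067 for Rheb, -0.191 to 0.019 for Rasd2, -0.045 to 0.0358 for Rragd, -0.0443 to 0.0253 for Lamtor1, -0.00472 to 0.0333 for Nprl2, -0.0259 to 0.0497 for Nprl3, -0.0441 to 0.0299 for Seh1l, -0.0356 to 0.00591 for Wdr24, -0.0259 to 0.0575 for Wdr59, -0.0393 to 0.0564 for Flcn, -0.00196 to 0.142 for Fnip1, -0.0137 to 0.112 for Slc38a9, -0.0484 to 0.066 for Rps6kb1, -0.102 to 0.0644 for Rps6kb2, -0.076 to 0.025 for Eif4ebp2 and -0.00322 to 0.0654 for Pdpk1. The cause of these sign changes was not tested, and the lowest unadjusted P of such a value, from the model fits across all genes, was 0.383. Depth limits the statement most for Eif4ebp1, with 43 to 87 reads per library.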

Other observations

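Across the members, the log2 fold change had a Spearman correlation of 0.34 with exon length (39 genes, which share the same 6 libraries), 0.42 without TG replicate 1 and 0.0952 over the 17519 genes tested with an annotated length. This is a correlation across genes, given as a description. TG replicate 1 was the lowest library for 8 of the 39 members (18.7% of all genes tested) and the highest for 9 (17.8%). Other libraries came close, with WT replicate 1 also the lowest for 8 (16.5%) and TG replicate 2 the highest for 7 (17.5%). TG replicate 3 was the lowest for 3 (16.1%) and WT replicate 2 the highest for 2 (13.9%), and no test was run on these counts. The median of the members relative to the WT mean was between -0.01 and 0.01 in every library.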
